A study of Mus musculus with 4 samples.

Results

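Within the TKO libraries, keratinocytes in which an 8-gene panel of normally silent transcripts was read were compared with keratinocytes of the same embryos in which no panel transcript was read. The study profiled sorted Epcam+ α6+ cells, labelled basal epithelial cells, of E16.5 mouse dorsal skin by droplet single-cell RNA-seq, which counts molecules as unique molecular identifiers (UMIs) from the 3′ ends of transcripts. There were 2 Ctrl and 2 TKO libraries, each from 1 embryo. All embryos carried floxed Suv39h1, floxed Setdb1 and no functional Suv39h2 and all received tamoxifen, so that Ctrl and TKO differed in the absence or presence of K14CreERT2, a tamoxifen-dependent recombinase driven by the promoter of a basal keratinocyte keratin. Ctrl is therefore itself null for Suv39h2. The study describes its TKO embryos as mosaic, meaning that recombination did not reach every cell.

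SETDB1, SUV39H1 and SUV39H2 are methyltransferases that place the trimethyl mark on lysine 9 of histone H3 (H3K9me3). The mark is bound by HP1 proteins and holds repeats, germline genes and genes of other lineages in a compact, silent state. In epidermis, basal keratinocytes expressing Krt5, Krt14 and Krt15 attach to the basement membrane and divide, and their progeny switch to Krt1 and Krt10 in the suprabasal layers or enter the hair follicle.

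A barcode was taken as a keratinocyte when it held at least 2000 genes, at least 10000 UMIs, under 10% mitochondrial UMIs and at least 50 UMIs of Krt5, Krt14 and Krt15 per 10000. Each cell was thinned at random to 10000 UMIs, and the UMIs of Gm41804, Gm42653, 1700030N03Rik, Gm11884, Npffr1, Cd28, Gm36551 and 1700108F19Rik were summed. Cells with 3 or more panel UMIs were called derepressed and cells with 0 were called silent. Of 2518 TKO keratinocytes, 1451 were derepressed (725 in TKO 1 and 726 in TKO 2), 586 were silent (276 and 310) and 481 held 1 to 2 panel UMIs and entered neither class. The series holds 19789 barcodes in all. The panel values chose the cells, so they are given as a description and were not tested.

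Levels are in counts per 1000000 UMIs (CPM) of a sum over cells. Krt14 stood at 6299 and 8595 CPM in the derepressed cells of TKO 1 and TKO 2 and at 7012 and 8165 in the silent cells. Krt5 stood at 3719 and 4594 CPM against 4143 and 4474. The keratin gate chose the cells on Krt5, Krt14 and Krt15, so these levels are a description. Trp63, a transcription factor of basal keratinocytes that the gate did not use, stood at 403 and 516 CPM against 428 and 582 in silent cells and 743 and 717 in Ctrl cells. Markers of other cells were read in every class, among them C1qa, Mrc1 and Lyz2 of macrophages and Egfl7 and Pecam1 of endothelium, while Cd3g and Trdc of T cells and Cdh5 of endothelium had no UMI. Summed endothelial markers stood at 30.5 and 27.5 CPM in derepressed, 44.2 and 20.3 in silent and 16.1 and 16.1 in Ctrl cells. Summed immune markers ranged from 32.0 to 37.7 CPM in derepressed cells, from 68.1 to 108 in silent cells and from 17.0 to 36.9 in Ctrl cells.

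The derepressed class made up 60.8% of the keratinocytes of TKO 1 (exact 95% interval 57.9 to 63.6%) and 54.8% of those of TKO 2 (52.1 to 57.5%). The silent class made up 23.1% (20.8 to 25.6%) and 23.4% (21.1 to 25.8%). The intervals cover counting error only. In Ctrl, 1 of 2008 and 1 of 2330 keratinocytes reached 3 panel UMIs, and 97.8% and 97.4% held none. The panel sum was most often 0 and fell off gradually from there, with no gap at the threshold. Just outside the threshold, 86 and 127 TKO cells held exactly 2 panel UMIs, and just inside it 92 and 118 cells held exactly 3. The median derepressed cell held 8 panel UMIs in TKO 1 and 7 in TKO 2, the highest 93 and 74, and 23.9% and 16.1% of all TKO keratinocytes held 10 or more.

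**Figure D1:**
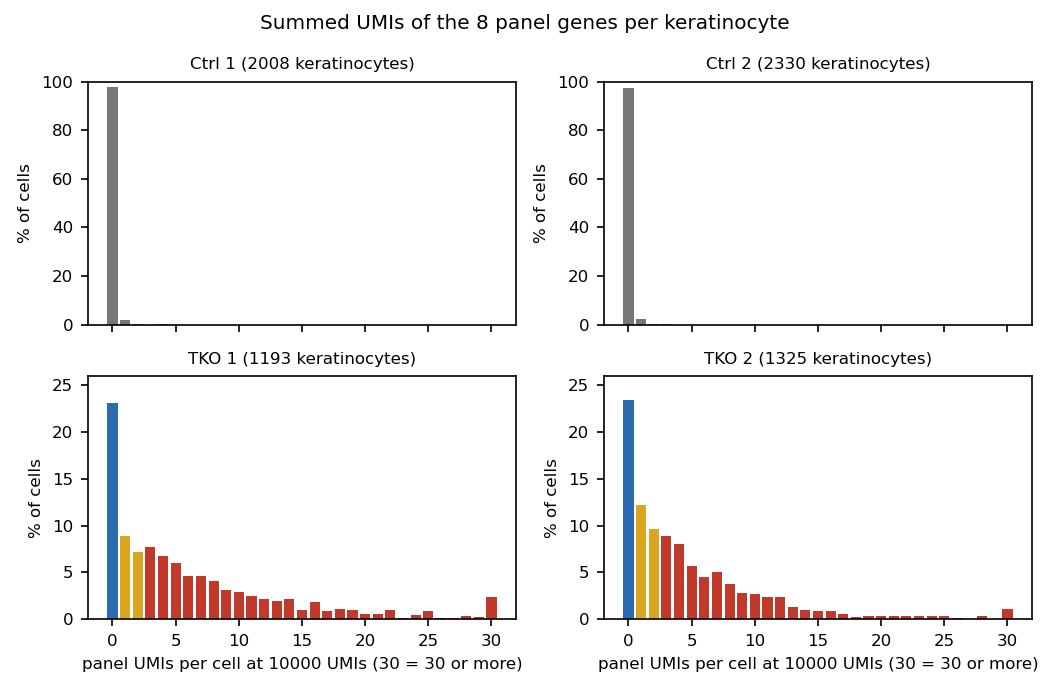
Percent of keratinocytes (vertical axis) by the summed UMIs of the 8 panel genes at 10000 UMIs per cell (horizontal axis, cells with 30 or more pooled at 30) in each of the 4 libraries. Nearly all Ctrl cells sit at 0, whereas TKO cells (blue, silent; yellow, 1 to 2 UMIs; red, 3 or more) run from 0 to 30 or more with no gap at the threshold. The vertical axes of Ctrl and TKO differ.

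Most panel genes are transcripts of unknown function. Cd28 encodes a co-stimulatory receptor of T cells and Npffr1 a neuropeptide receptor, and neither belongs to keratinocytes. Gm42653 (GRCm39 chr5:70718608-70721446, plus strand) gave the most panel UMIs, at 572 and 319 CPM in derepressed cells, followed by the long non-coding RNA Gm41804 (chr19:8229233-8296536, plus strand) with 174 and 175. Each panel gene was also read in cells classed on the other 7 genes alone. Gm42653 had a UMI in 90.8% and 79.3% of cells with 3 or more UMIs of the other 7 genes, and in 39.7% and 38.0% of cells with none. For Gm41804 the shares were 55.9% and 49.5% against 7.07% and 10.4%, and for Cd28 they were 23.7% and 28.0% against 5.15% and 9.36%. All 8 genes were thus read more often in cells that held the others.

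Thinning left UMIs that had no part in the choice, and in those the panel could be read again. It stood at 1027 and 828 left-over CPM in derepressed cells, 41.7 and 56.1 in silent cells and 2.17 and 3.35 in Ctrl cells without panel UMIs. Silent cells were thus low and not empty. Barcodes of the same TKO libraries with under 5 keratin UMIs per 10000 and at least 20 UMIs of fibroblast, immune, melanocyte or endothelial markers, which should lack the panel, held 52.7 and 27.8 panel CPM, against 17.3 and 22.7 in Ctrl. Their median depths before thinning were 20748 and 19194 UMIs in TKO and 17545 and 15601 in Ctrl. The left-over level in silent cells of TKO 1 lay below the thinned level in the non-keratinocytes of its library, and in TKO 2 it lay above. These levels are not alike, since silent cells were chosen for lacking panel UMIs and the non-keratinocytes were not chosen on the panel. Among the non-keratinocytes, 18 of 465 barcodes in TKO 1 and 13 of 514 in TKO 2 held 3 or more panel UMIs. The comparison thus cannot tell free RNA from panel transcripts of the cells themselves in silent cells.

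Other properties of the cells are given without a test, since an exact sign-flip test over 2 pairs cannot go below p = 0.5. The median derepressed cell held 33417 and 30731 UMIs before thinning, the median silent cell 29211 and 27765, and the median Ctrl cell 22267 and 17908. At 10000 UMIs a derepressed cell held a median of 3719 and 3664 genes and a silent cell 3673 and 3664. Mitochondrial shares were 1.90% and 2.09% against 1.89% and 2.17%. Suprabasal cells, defined by at least 10 UMIs of a suprabasal gate, made up 5.24% and 11.7% of derepressed cells and 6.16% and 16.8% of silent cells. The hair follicle gate took cells with any UMI of Shh, Lhx2, Wif1, Dkk4, Fgf20 or Edar. Such cells made up 43.3% and 38.3% against 43.5% and 40.3% and need not be follicle cells. The mitosis gate took cells with at least 3 UMIs of Mki67, Top2a, Cdk1, Cenpf, Ccnb1 and Hmmr together. Cells past it made up 68.1% and 61.3% of derepressed, 64.9% and 55.5% of silent and 45.1% and 40.3% of Ctrl cells. In both libraries this share was highest in derepressed cells, and it need not be a share of cells in mitosis.

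UMIs of all other genes were summed per library and class and compared by edgeR's quasi-likelihood test, with the library as a block so that each derepressed sum was set against the silent sum of its own embryo. Of 12912 genes tested, 494 were higher (3.83%) and 273 lower (2.11%) in derepressed cells at an adjusted p under 0.05. The block leaves 1 residual degree of freedom, and the number of calls rests on it. Without the block 3 genes were called, Trp53inp1, Gm1110 and Tnxa, all higher. DESeq2 called 76 genes higher and 16 lower. With TKO 2 alone 48 genes were higher and 7 lower, and with TKO 1 alone 102 and 40. In these fits each class is a single sum, and the spread comes from the Ctrl sums, so that the TKO sums are assumed to vary like them. Of 996 long non-coding RNAs tested, 62 were higher (6.22%) and 5 lower (0.502%), beside 3.83% and 2.11% of all genes. Of 238 pseudogenes, 13 were higher (5.46%) and 0 lower. Transcripts near 0 in silent cells passed the expression filter through derepressed cells and could hardly come out lower, so these counts are a description.

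The 3 targeted genes were read first. Setdb1 stood at 37.9 and 39.9 CPM in derepressed cells, 45.7 and 41.3 in silent cells and 68.9 and 59.7 in Ctrl cells. Both TKO classes lay below both Ctrl libraries, and within each embryo derepressed cells lay below silent cells. The log2 difference between the classes was -0.17 (SE 0.124; adjusted p = 0.567 by edgeR) and did not pass the test. Against Ctrl, Setdb1 was lower by -0.73 in derepressed cells (edgeR adjusted p = 0.0123) and stood at -0.57 in silent cells (adjusted p = 0.0805). The derepressed call did not hold without Ctrl 1 (-0.62) or Ctrl 2 (-0.85), and DESeq2 called the silent value too (-0.56). These calls thus do not set the classes apart. The tags come from the 3′ end and can lie outside the deleted part of the gene, so the Setdb1 level need not report its deletion. Setdb1 stood at 40.0 and 37.5 CPM in the cells with 20 or more panel UMIs, and the counting intervals of these overlapped those of cells without panel UMIs.

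Suv39h1 stood at 21.7 and 19.3 CPM in derepressed cells, 37.3 and 26.5 in silent cells and 28.0 and 25.2 in Ctrl cells. Derepressed cells lay below both other groups in each library, whereas silent and Ctrl cells overlapped. The log2 difference between the classes was -0.65 (SE 0.158, edgeR adjusted p = 0.013). That call did not hold in another random thinning, where the log2 difference of Suv39h1 was -0.23 (adjusted p = 0.546). Suv39h2, null in all embryos by the labels but read at its 3′ end, stood at 22.6 and 15.2 CPM in derepressed cells and 26.1 and 18.7 in silent cells (log2 -0.27, SE 0.170, adjusted p = 0.490). Among 6 other H3K9 methyltransferases and SETDB1 partners tested, 1 was higher (3.83% of all genes were) and 0 lower. DESeq2 called it too, whereas the fits without the block and with TKO 2 alone did not. Atf7ip, whose product protects SETDB1 from degradation, stood at 227 and 288 CPM in derepressed cells, 116 and 193 in silent cells and 90.0 and 67.9 in Ctrl cells, a log2 rise of 0.74 over silent cells (SE 0.0846, adjusted p = 2.43e-06). Of 12 genes of HP1 and the HUSH complex, which read the mark, none passed (edgeR). At an unadjusted p under 0.05, 3 were higher and 0 lower, and DESeq2 called 0.

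**Figure D2:**
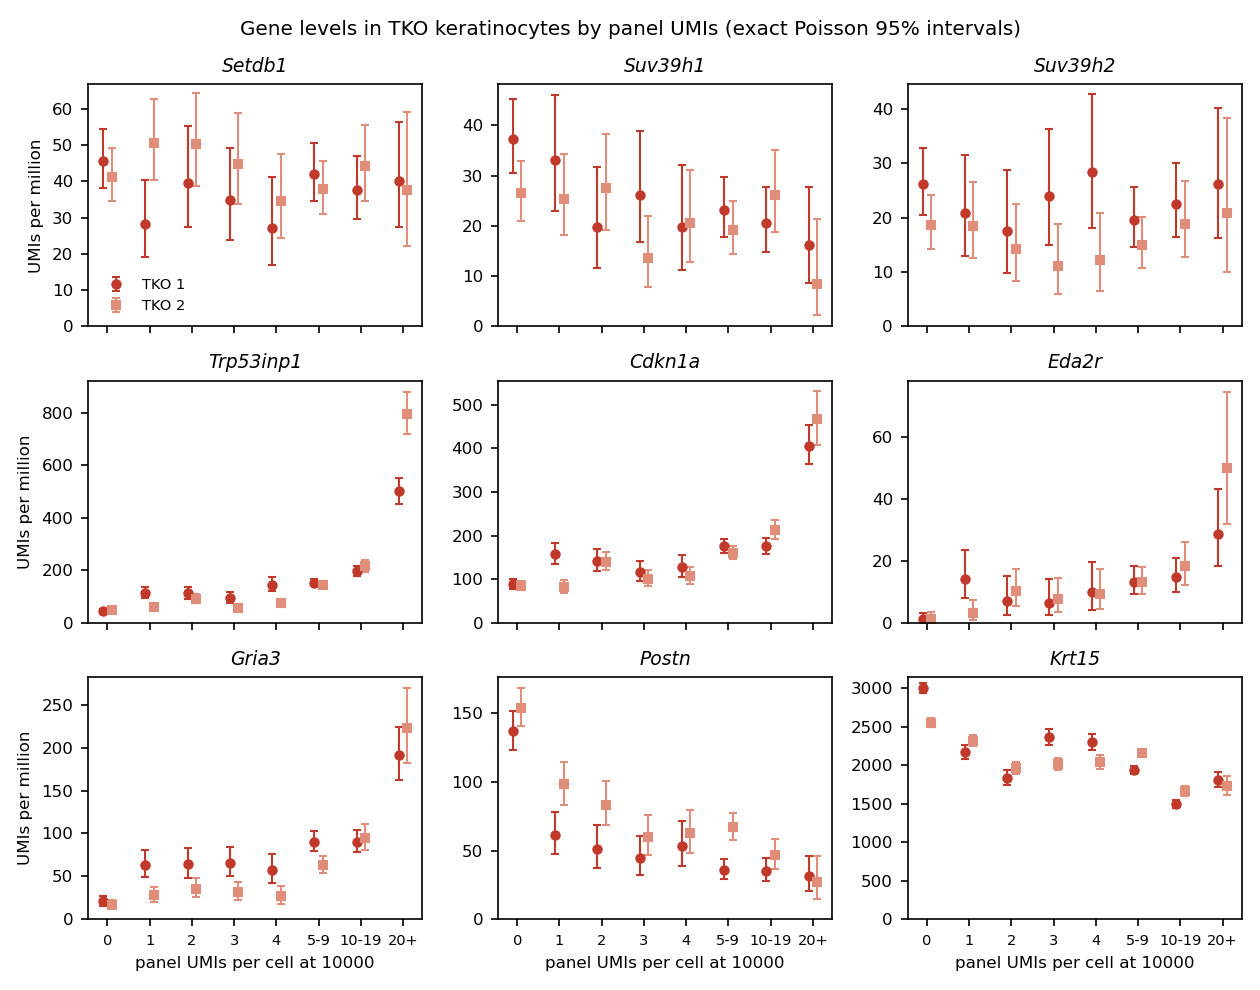
Level in CPM (vertical axes, from 0) of 9 genes in TKO keratinocytes grouped by panel UMIs at 10000 UMIs per cell (horizontal axis), with circles for TKO 1, squares for TKO 2 and exact Poisson 95% intervals, which cover counting error only. The Setdb1 intervals overlap between the lowest and the highest bin, Trp53inp1, Cdkn1a, Eda2r and Gria3 are highest at 20 or more panel UMIs, and Postn and Krt15 are lowest there or near it. Cells of a bin share their embryo, so bins are not replicates.

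Targets of p53 were higher in derepressed cells. The protein p53 is a transcription factor that is activated by DNA damage and other stress and switches on genes of cell cycle arrest and apoptosis. Of 20 p53 targets tested, 14 were higher in derepressed than in silent cells (3.83% of all genes were) and 0 lower (2.11%), with a median log2 difference of 0.70 beside -0.01 over all genes tested. DESeq2 called 8 of them and the fit without the block 1 (15 at an unadjusted p under 0.05). With the block 1 target was lower at an unadjusted p under 0.05. In some alternatives 1 was called lower, among them another random thinning and all UMIs of each cell. With 1 library left out, 5 and 9 were higher, and in the other alternatives 10 to 17.

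Trp53inp1, which promotes cell death and autophagy downstream of p53, stood at 196 and 179 CPM in derepressed cells, 44.2 and 48.4 in silent cells and 53.2 and 56.6 in Ctrl cells. The derepressed values did not overlap with the others, and silent cells lay just below Ctrl cells. Its log2 difference between the classes was 2.0 (SE 0.0956, adjusted p = 4.67e-12). Cdkn1a, which encodes the cyclin-dependent kinase inhibitor p21, stood at 188 and 175 in derepressed cells, 88.8 and 83.9 in silent cells and 63.0 and 71.3 in Ctrl cells (log2 1.06, SE 0.0837, adjusted p = 8.03e-09). Ccng1, the atypical cyclin G1, stood at 123 and 98.9 against 44.2 and 36.5 in silent cells and 22.3 and 26.3 in Ctrl cells (log2 1.44, SE 0.10, adjusted p = 1.19e-09). Zmat3, an RNA-binding zinc finger gene, stood at 80.1 and 71.3 against 28.6 and 35.2 in silent cells and 22.9 and 21.7 in Ctrl cells (log2 1.22, SE 0.121, adjusted p = 3.28e-07). In each of these genes the lowest derepressed sum lay above the highest silent sum.

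Eda2r, a receptor of the TNF receptor family, was picked after its values were seen because its fold was the highest of the list. It stood at 14.1 and 15.3 CPM in derepressed cells, 1.09 and 1.29 in silent cells and 0.967 and 0.705 in Ctrl cells (log2 3.58, SE 0.371, adjusted p = 6.12e-07). The levels of these genes were highest in the cells with most panel UMIs. Trp53inp1 went from 44.2 CPM in cells of TKO 1 without panel UMIs to 501 in cells with 20 or more, and from 48.4 to 796 in TKO 2. Cdkn1a went from 88.8 to 406 and from 83.9 to 467. Summed over the 20 targets, the level went from 1926 to 3754 and from 2093 to 4492 CPM. Against Ctrl, 14 of the 20 targets were higher in derepressed cells (7.46% of all genes were) and 0 lower (4.65%), with a median of 1.09. In silent cells, 0 were higher and 0 lower (1.15% and 0.734% of all genes) with a median of 0.19, although 7 were higher and 0 lower at an unadjusted p under 0.05 and DESeq2 called 3. Both contrasts used the same Ctrl sums.

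**Figure D3:**
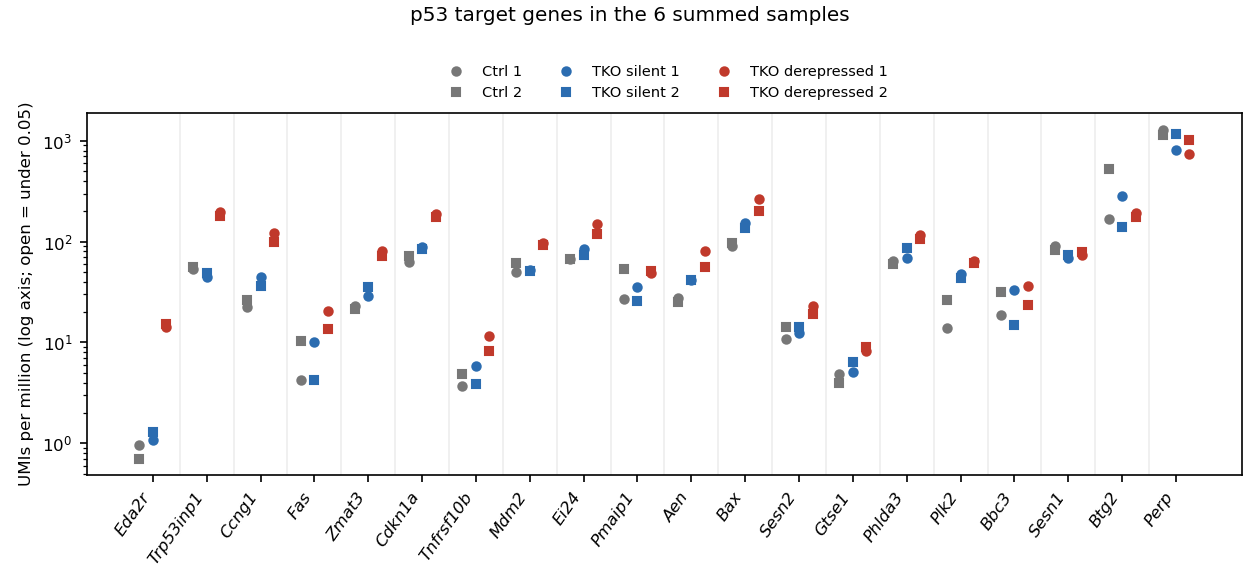
Level in CPM (log axis; open symbols are under 0.05) of the 20 p53 target genes in the 6 sums, with Ctrl in grey, silent TKO cells in blue and derepressed TKO cells in red, circles for replicate 1 and squares for replicate 2. Genes are ordered from the highest to the lowest log2 difference between derepressed and silent cells. In Eda2r, Trp53inp1, Ccng1, Zmat3 and Cdkn1a both red symbols lie above all blue and grey ones.

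Genes of the germline are silenced in somatic cells by H3K9 methylation, among other means. Of 7 germline and meiosis genes tested (of 30 listed), 6 were higher in derepressed cells (3.83% of all genes were) and 0 lower, with a median log2 difference of 1.40. The 7 were those with enough UMIs to be tested, so the count says nothing of the other members of the list. Members near 0 in silent cells could pass the expression filter through derepressed cells, so the counts and median are a description. DESeq2 called 1 and the fit without the block 0. Below the mitosis gate 2 were called, and none below the suprabasal, mitosis and hair follicle gates together, where 52 and 55 silent cells remain. With 1 library left out 1 was called, whichever it was, and without the cells that held other-cell markers 3 were. Tcfl5, a transcription factor of spermatogenesis, stood at 27.0 and 27.7 CPM in derepressed cells, 7.25 and 8.06 in silent cells and 0.458 and 0.485 in Ctrl cells (log2 1.82, SE 0.205, adjusted p = 2.16e-06). Each step from Ctrl to silent to derepressed was without overlap. Stag3, a meiotic cohesin subunit, stood at 10.8 and 12.7 against 2.17 and 4.52 in silent cells and 1.07 and 0.573 in Ctrl cells (log2 1.78, SE 0.313, adjusted p = 0.000657). Tex15 and Piwil1, which act in the silencing of transposons in germ cells, differed by 0.90 (SE 0.179, adjusted p = 0.00215) and 1.40 (SE 0.348, adjusted p = 0.0146).

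Of 9 neuronal genes tested (of 25 listed), 4 were higher (3.83% of all genes were) and 0 lower, with a median of 0.55. Members near 0 in silent cells passed the expression filter through derepressed cells and could hardly come out lower. The counts and median are thus a description. The median was 1.45 in TKO 2 alone and -0.11 in TKO 1 alone, where 1 and 3 genes were called. DESeq2 called 2 and the fit without the block 0. Gria3, a subunit of AMPA-type glutamate receptors, stood at 94.5 and 70.5 CPM in derepressed cells, 20.7 and 16.8 in silent cells and 1.53 and 0.661 in Ctrl cells (log2 2.12, SE 0.127, adjusted p = 9.14e-11). Gria3 is not absent from skin as a whole, since non-keratinocyte barcodes held 35.7 and 18.7 CPM in TKO and 37.2 and 28.4 in Ctrl, and in each TKO library they lay above its silent keratinocytes. The related subunit Gria4 stood at 29.1 and 9.23 against 3.62 and 0.968 in silent cells and 1.12 and 1.5 in Ctrl cells (log2 3.03, SE 0.305). Rbfox1, a neuronal splicing factor, differed by 1.67 and Svop, a synaptic vesicle protein, by 2.14.

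The genes with the highest log2 differences among those meeting the naming rule were mostly without a UMI in the 586 silent cells, and 12 of the 15 had none. Gm42863 held 55 and 76 UMIs in derepressed cells and 0 and 0 in silent cells, which puts it at least 17.6-fold higher (3 UMIs over the group taken as the floor). On the same floor, Gm47887 was at least 13.2-fold, 4933404K08Rik at least 11-fold and Gm41318 at least 8.75-fold higher. Their counting intervals began at 10.5, 8.78 and 6.92. Next came the receptor pseudogene Vmn2r-ps21 at 6.6-fold or more. Named coding genes at 0 in silent cells included Tshr, the thyrotropin receptor (at least 6.19-fold), and the olfactory receptor gene Olfr417 (at least 4.85-fold). Bicd1, a dynein adaptor (at least 4.71-fold), and Gabrr1, a GABA receptor subunit (at least 4.58-fold), were others. Gm28447 and Gm37257 were at least 6.46-fold and 5.65-fold higher. Pilrb2, a receptor gene at 15 and 15 UMIs against 0 and 0, was at least 4.04-fold higher, and it overlaps the panel gene Gm36551 on the opposite strand. Bicd1 and Tshr were read in Ctrl cells, at 0.407 and 0.485 and at 0.0509 and 0.396 CPM. None of the 12 genes without a UMI in silent cells was called in DESeq2 or without the block.

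Another 3 transcripts had UMIs in both classes. Gm1110 held 316 UMIs in derepressed and 3 in silent cells, a ratio of 42.5 (95% counting interval 14.4 to 207), and 22.1 and 21.5 CPM in derepressed cells of the 2 libraries against 0.725 and 0.323. Tnxa, a pseudogene of tenascin X, held 366 and 5 UMIs, a ratio of 29.6 (12.6 to 91.6). Gm54771 held 184 UMIs against 1, a ratio of 74.3 (13.2 to 2951). Gm1110 and Tnxa were called in each of the 19 alternatives in which they were tested. Gm1110 went from 0.725 and 0.323 CPM in cells without panel UMIs to 43.8 and 106 in cells with 20 or more.

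Genes next to the panel genes were read in the same sums. Of 19 genes tested within 100 kb of a panel gene, 7 were higher in derepressed cells (3.83% of all genes were) and 0 lower. DESeq2 called only ENSMUSG00000120763 of the 7, and the fit without the block none. Genes without a UMI in silent cells, such as Gm28447 and Pilrb2, passed the filter through derepressed cells, so the count is a description. Among the 7, Gm8184 overlaps Gm41804 on the same strand. Gm28447 overlaps Npffr1 and Pilrb2 overlaps Gm36551, both on the opposite strand. The UMIs of these overlapping genes may not be apart from those of the panel. The other 4 did not overlap a panel gene and were chosen after their values were seen. ENSMUSG00000120763, beside Cd28, held 210 and 351 UMIs in derepressed cells and 3 and 20 in silent cells (log2 3.32, SE 0.252, adjusted p = 4.26e-09). Gm11577, also beside Cd28, differed by 2.56, Lrrc20 beside Npffr1 by 1.64 and Zcwpw1, which reads histone marks at meiotic breaks, beside Gm36551 by 1.43. The 12 other neighbours, among them Ppa1, Sar1a, Tsc22d1 and Mrpl21 with log2 differences of 0.10, -0.09, -0.12 and 0.12, were not called.

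Zinc finger genes, predicted genes and RIKEN transcripts were counted as families. Of 285 genes named Zfp, 8 were higher, a smaller share than the 3.83% of all genes, and 1 lower, with a median of 0.03. Zfp365 differed by 2.03 and Zfp958 by 1.26, and the lower gene, Zfp36, is also in the list of immediate early genes. Of 1016 predicted genes named Gm, 56 were higher (3.83% of all genes were) and 1 lower, and of 466 RIKEN transcripts 14 were higher, also a smaller share than that of all genes, and 2 lower. DESeq2 called 7 of the predicted genes higher and the fit without the block 1, and neither called a Zfp gene or a RIKEN transcript (26 and 40 were higher at an unadjusted p under 0.05 with the block). Predicted genes at 0 in silent cells likewise passed the filter only where derepressed cells were high. The clustered protocadherins, surface proteins of neurons, had a median of 0.73 over 9 genes tested of 58 listed. Those 9 were the members with enough UMIs, so the median is not that of the family. None passed in edgeR or DESeq2, and 2 were higher at an unadjusted p under 0.05. The interferon response, which follows the release of double-stranded RNA from repeats, showed no call either way in 9 genes (edgeR and DESeq2 0), with 2 higher and 0 lower at an unadjusted p under 0.05 and a median of 0.03.

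Several lists had more lower than higher calls in derepressed cells. Of 18 immediate early genes, which respond within minutes to stress and dissociation, 10 were lower (2.11% of all genes were) and 0 higher, with a median of -0.36. The median was -0.11 in TKO 2 alone and -0.59 in TKO 1 alone. Atf3 stood at 236 and 122 CPM in derepressed cells, 459 and 166 in silent cells and 249 and 744 in Ctrl cells (log2 -0.75, SE 0.0929, adjusted p = 7.20e-06). The libraries differed more than the classes did, with Ctrl 2 highest and TKO 2 lowest. Egr1, Zfp36 and Fos differed by -0.64, -0.62 and -0.50. DESeq2 called none of the 18, and neither did the fits without 1 library or the fit without the block, whereas 13 were lower at an unadjusted p under 0.05 in the fit with the block.

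Of 16 basal genes, 2 were lower (2.11% of all genes were) and 0 higher (3.83%) in edgeR, Postn and Krt15, and 6 were lower and 1 higher at an unadjusted p under 0.05. DESeq2 called 1 of them lower, each fit without 1 library 1, and the fit without the block 0. Postn, which encodes a matrix protein of the basement membrane zone, stood at 38.2 and 58.0 CPM in derepressed cells, 137 and 154 in silent cells and 174 and 212 in Ctrl cells (log2 -1.62, SE 0.0999, adjusted p = 1.20e-10). Silent cells lay below Ctrl and derepressed cells below both. Krt15, a keratin of basal and follicle progenitor cells, stood at 1889 and 1977 against 2993 and 2548 in silent cells and 4958 and 5950 in Ctrl cells. It is part of the keratin gate that chose the cells, so its values are a description and its call is no finding. Postn and Dcn are also expressed by fibroblasts. Dcn was lower by -0.48, whereas Col1a1, Col1a2 and Col3a1 were not called (log2 -0.94, -0.81 and 0.08), and 2 of 5 fibroblast markers were lower also without the cells that held other-cell markers. All 10 fibroblast markers summed to 1007 and 844 CPM in derepressed cells, 1424 and 1289 in silent cells and 1335 and 1488 in Ctrl cells. Their part in the Postn value was not tested.

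Of 14 suprabasal genes, 6 were lower (2.11% of all genes were) and 1, Cdkn1a, was higher (3.83%), with a median of -0.27. Krt1 stood at 130 and 825 CPM in derepressed cells, 316 and 1682 in silent cells and 1572 and 944 in Ctrl cells (log2 -1.15, SE 0.0698, adjusted p = 9.97e-11). Krt10 stood at 274 and 898 against 417 and 1671 in silent cells (log2 -0.78). In both embryos the silent cells were higher, by a smaller margin than the embryos differed. A smaller share of suprabasal cells and a lower level per cell cannot be told apart in a sum. The suprabasal gate chooses cells on genes of this kind and so does not separate them either. Below it the median was 0.04, and the calls turned round to 4 higher and 1 lower. Below all 3 gates the median was 0.16, with 1 higher and 0 lower. DESeq2 called 2 of the list lower, and no member was lower without the block, with either library left out or at 100 keratin UMIs. On all UMIs of each cell 11 were lower, with a median of -0.56.

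Of 17 hair follicle genes, 7 were lower (2.11% of all genes were) and 0 higher, with a median of -0.37. The median was -0.46 in TKO 2 alone and -0.24 in TKO 1 alone, and -0.14 with 1 gene lower at 100 keratin UMIs. Lgr6, a marker of follicle and interfollicular stem cells, stood at 50.5 and 76.4 CPM in derepressed and 72.1 and 135 in silent cells (log2 -0.71, SE 0.0939, adjusted p = 1.91e-05). Shh, the signal of the hair placode, stood at 3.59 and 5.65 against 8.70 and 14.2 (log2 -1.32, SE 0.279, adjusted p = 0.00380). Wif1, an inhibitor of Wnt signalling, stood at 2.21 and 1.79 against 7.25 and 6.13 (log2 -1.75). Edar, the ectodysplasin receptor of the placode, differed by -0.37. Lef1, a mediator of Wnt signalling named after its values were seen, stood at 693 and 556 against 596 and 548 (log2 0.10). DESeq2 called none of the 17, nor did the fit without the block, and 10 were lower at an unadjusted p under 0.05 with the block. In TKO 2 alone 1 was lower and in TKO 1 alone 0, and without the cells that held other-cell markers 2 were.

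Of 22 epidermal fate regulators, 6 were lower and 1 higher, and of 13 genes of the BMP pathway, which restrains follicle growth, 5 were lower and 0 higher, where 2.11% of all genes were lower. No member of either list was lower in edgeR without the block (4 in each at an unadjusted p under 0.05) or with either library left out, and DESeq2 called 1 and 2 lower. Below all gates 1 and 2 were lower, and the median of the fate regulators was 0.03 there. Id1, a target of BMP signalling in both lists, stood at 180 and 157 CPM in derepressed cells, 272 and 209 in silent cells and 65.0 and 98.5 in Ctrl cells (log2 -0.52, SE 0.0775, adjusted p = 8.23e-05). Silent cells were thus the highest of the 3 groups. Id3 differed by -0.49, the ligand gene Bmp4 by -1.88 and Ovol1, a repressor needed for keratinocyte differentiation, by -0.98. In the Notch pathway, which drives the basal to suprabasal switch, 2 of 10 were higher (3.83% of all genes were) and 1 lower, with Notch1 at 0.44 (SE 0.0731, adjusted p = 0.000354). None of the 10 was called in DESeq2, without the block or with either library left out.

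Of 25 mitotic genes tested, 5 were higher (3.83% of all genes were) and 0 lower, with a median of 0.20, and 13 were higher at an unadjusted p under 0.05. None was called in DESeq2, in edgeR without the block or with either library left out, nor below the mitosis gate, which chooses cells on genes of this kind. The median was 0.39 in TKO 2 alone and 0.12 in TKO 1 alone. Cdk1, the kinase that starts mitosis, stood at 192 and 170 CPM in derepressed cells, 152 and 117 in silent cells and 92.0 and 97.0 in Ctrl cells (log2 0.42, SE 0.0823, adjusted p = 0.00212). Of 27 DNA replication genes 1 was higher and 2 lower, beside 3.83% and 2.11% of all genes. None was called in DESeq2, without the block or with either library left out, and 1 was higher and 9 lower at an unadjusted p under 0.05 with the block. Of 9 DNA methylation genes, Hells and Uhrf1, which act in maintenance methylation, had log2 differences of -0.34 and -0.29 and were called lower, but none of the 9 was called in DESeq2, without the block, with either library left out or in another random thinning (3 lower at an unadjusted p under 0.05 with the block). Of 19 imprinted genes 3 were higher and 2 lower, none of them in DESeq2, without the block or with either library left out (7 and 3 at an unadjusted p under 0.05 with the block). Mest stood at 32.6 and 25.5 against 16.3 and 10.0 in silent cells and 2.24 and 3.13 in Ctrl cells (log2 1.13), and Peg3 differed by 0.55. Hemidesmosome, laminin and matrix genes had 0 of 19 called in edgeR and in DESeq2 (2 higher and 6 lower at an unadjusted p under 0.05).

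Smaller groups followed no single direction. Of 7 stress keratins, 3 were lower and 1 was higher, beside 2.11% and 3.83% of all genes. None of the 7 was called in DESeq2 or without the block (4 lower and 1 higher at an unadjusted p under 0.05 with it). Krt17, a keratin of the hair follicle and of wounded epidermis, stood at 484 and 661 CPM in derepressed, 375 and 604 in silent and 398 and 436 in Ctrl cells (log2 0.23, SE 0.0666, adjusted p = 0.040). Of 7 cornified envelope genes, 2 were lower and 0 higher, none of them in DESeq2 or without the block (3 and 1 at an unadjusted p under 0.05 with it). Of 9 cytokines and chemokines, 1 was lower, in DESeq2 too but not without the block or with TKO 2 alone. This was Cxcl14, a chemokine made by resting epidermis, which stood at 955 and 678 CPM in derepressed cells, 1613 and 1057 in silent cells and 1144 and 1245 in Ctrl cells (log2 -0.72, SE 0.0587, adjusted p = 1.53e-08). Derepressed cells were below silent cells in each embryo, while the silent sums of the 2 embryos lay on either side of Ctrl. Of 6 CDK inhibitor genes, Cdkn1a alone was called. Its relative Cdkn1b stood at 32.4 and 34.7 against 48.9 and 38.1 in silent cells (log2 -0.38, adjusted p = 0.12). Of 18 muscle and heart genes 1 could be tested. It was Mybpc1, a myosin-binding protein, higher at 269 and 116 against 133 and 97.4 (log2 0.65, adjusted p = 0.000448). DESeq2, the fit without the block and the fit with TKO 2 alone did not call it. Of 8 genes of MHC class I and antigen presentation none was called by edgeR or DESeq2, and 1 was higher and 1 lower at an unadjusted p under 0.05.

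**Figure D4:**
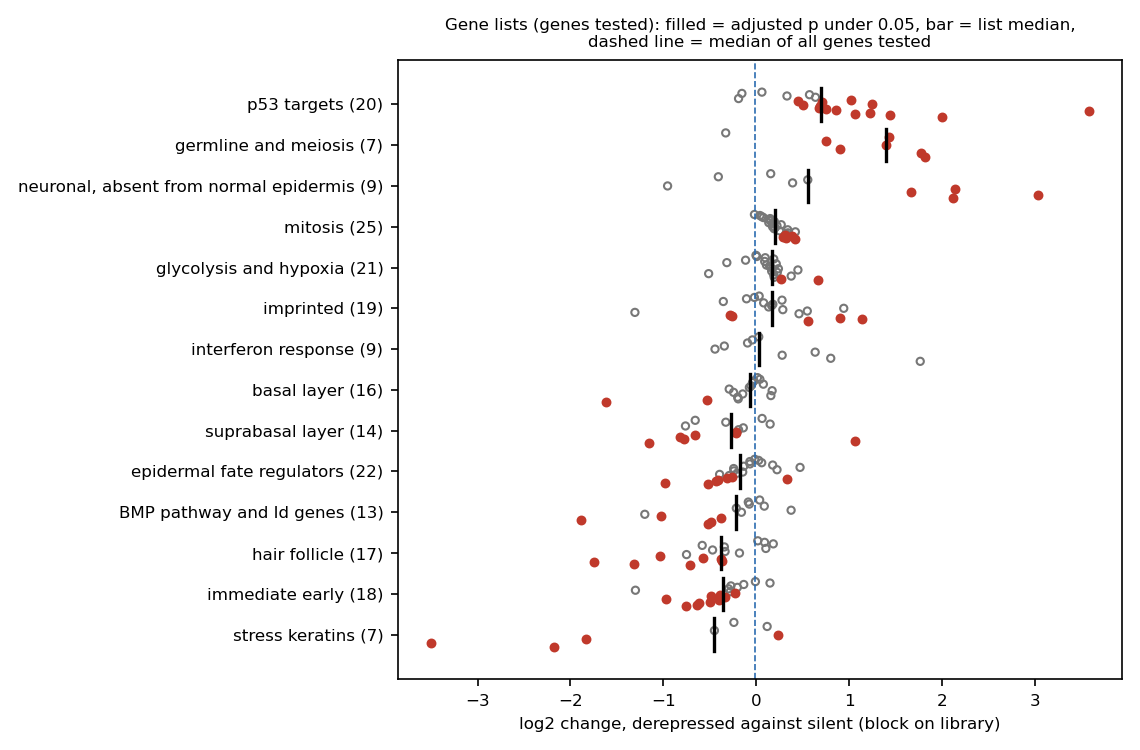
Log2 difference between derepressed and silent cells (horizontal axis) of the genes of 14 lists, with the number of genes tested in parentheses. Filled points have an edgeR adjusted p under 0.05, black bars are list medians and the dashed line is the median of all genes tested, at -0.01. The p53 and germline lists lie to the right, and the hair follicle and immediate early lists to the left.

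Markers of other cells differed between the classes, though not in step with the panel. Summed immune markers were highest in the TKO cells with 1 or 2 panel UMIs, at 136 and 208 CPM, which belong to neither class. Of 8 immune markers, 6 were lower in derepressed cells (2.11% of all genes were), with a median of -1.46. None was called in DESeq2, without the block or with either library left out, and 7 were lower at an unadjusted p under 0.05 with the block. Lyz2, the lysozyme of macrophages, stood at 3.31 and 1.93 CPM against 10.5 and 11.3 in silent cells. Of 4 erythroid markers, 4 were lower, 1 in DESeq2 and 0 without the block or with either library left out, with a median of -2.34, almost wholly from TKO 2, where Hba-a2 stood at 4.96 against 35.2. Without replicate 2 the erythroid median was 0.09. With the top-scoring doublets left out, 1 immune and 0 erythroid markers were lower, with medians of -0.06 and 0.14. Of 5 melanocyte markers, 2 were lower, Dct and Tyr of pigment synthesis at -0.97 and -1.13, but none was lower in DESeq2, without the block, with either library left out or in another random thinning, where the median went from -0.52 to 0.45. Of 2 endothelial markers none was called (edgeR and DESeq2, and 0 at an unadjusted p under 0.05). The summed level was 19.6 and 49.3 CPM in derepressed, 31.5 and 72.3 in silent and 12.7 and 12.1 in Ctrl cells for melanocyte markers, and 20 and 123, 12.3 and 633, and 18.3 and 238 for erythroid markers. No marker of Schwann cells and muscle had enough UMIs to be tested. Cells holding 3 or more UMIs of other-cell markers, Postn and Dcn left out of the count, made up 7.86% and 8.82% of derepressed cells, 9.42% and 9.03% of silent cells, 12% and 11.4% of the TKO cells between them and 3.77% and 5.99% of Ctrl cells. Without those cells, 268 genes were higher and 105 lower in derepressed cells, and 13 of the p53 targets were higher. The part of such cells in the other lower genes was not tested.

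Among the 15 genes with the lowest log2 differences under the naming rule (the same direction in both libraries and at least 20 UMIs in the higher group) were the macrophage genes Laptm5 and Lyz2 and the haemoglobin gene Hba-a2. Most of the others belong to epithelia. Cldn3, a tight junction protein of simple epithelia, held 1 UMI in derepressed and 28 in silent cells, a ratio of 69.3 (95% counting interval 11.5 to 2835). Krt18, a simple-epithelium and Merkel cell keratin, stood at 2.34 and 2.75 CPM against 6.88 and 11.3 in silent cells and 2.39 and 2.29 in Ctrl cells (log2 -1.83, SE 0.341, adjusted p = 0.00119). Sprr1a, a cornified envelope precursor, stood at 0.690 and 2.20 against 9.06 and 8.39 (log2 -2.60). Krt6b was read only in TKO 2, at 7.30 against 33.2, apart from a Ctrl 1 level of 0.0509, so its direction in TKO 1, which the naming rule counted, rests on the number added before taking the ratio, and Krt19, at -3.50, was not among the 15, since it stood at 2.48 against 67.8 in TKO 1 and at 2.75 against 0.645 in TKO 2. The 15 also held Serpinb11, Cysrt1, Clic3, Cpne4, Bmp4, Cryab and Wif1, with log2 differences from -2.59 to -1.75.

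Silent cells were then set against Ctrl cells without panel UMIs, which asks whether TKO cells without a panel UMI at 10000 UMIs differed from Ctrl. Of 14311 genes, 165 were higher (1.15%) and 105 lower (0.734%) in silent cells, and with the replicate numbers as a block 73 and 89. For derepressed cells the counts against the same Ctrl sums were 1067 (7.46%) and 665 (4.65%). These fits treat the 6 sums as independent although the 4 TKO sums come from 2 embryos, with deviations correlated at 0.489 between the classes of an embryo, so their p-values are too small. Leaving out Ctrl 1 or Ctrl 2 left 6 and 2 genes higher and 11 and 3 lower in silent cells.

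Genes that were higher in silent cells included those that were higher still in derepressed cells. Col28a1, a collagen of the nervous system, held 0.102 and 0 CPM in Ctrl, 4.35 and 18.1 in silent cells and 33.1 and 104 in derepressed cells (silent against Ctrl, ratio 246, counting interval 65.4 to 2070). Gm49171 held 0.611 and 0.176, 6.16 and 9.68, and 20.7 and 15.2 in the same order. Col28a1, Gm49171, Gria3 and Tcfl5 also differed between the TKO classes. In non-keratinocyte barcodes of TKO 1 and TKO 2, Col28a1 held 0.645 and 4.09 CPM, Gm49171 0.860 and 0.778 and Tcfl5 3.01 and 1.95, below the silent cells of the same library, whereas Gria3 held 35.7 and 18.7, above them. The part of free RNA in the silent level was not tested further.

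Other genes were higher than Ctrl in silent cells without a call between the TKO classes. Sprr2a3, a cornified envelope precursor, held 0.815 and 0.308 CPM in Ctrl, 17.8 and 23.9 in silent cells and 19.7 and 42.8 in derepressed cells (silent against Ctrl, log2 5.22, SE 0.565, adjusted p = 0.0141; derepressed against silent 0.56, adjusted p = 0.0602). Sncg, a synuclein, Tesc and the melanocyte gene Mlana were of this kind, with log2 changes over Ctrl of 4.38, 3.78 and 4.0 in silent cells and differences between the classes of 0.51, 0.85 and 0.60 that did not pass. Mlana was abundant in non-keratinocyte barcodes of TKO, at 62.6 and 31.7, and was 4.08 and 5.21 in those of Ctrl.

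The genes with the lowest differences in silent cells were read in derepressed cells too. Zfpm2, a cofactor of GATA factors, stood at 44.9 and 41.3 CPM in Ctrl, 1.81 and 1.29 in silent and 2.07 and 1.65 in derepressed cells (silent against Ctrl, log2 -4.80, SE 0.242, adjusted p = 0.00152). Adamts9, a matrix protease, stood at 38.2 and 43.4, 1.45 and 1.61, and 0.966 and 1.52 (log2 -4.72, SE 0.263, adjusted p = 0.00158). Krt79, a keratin of the hair canal, stood at 35.6 and 31.5 in Ctrl, 0.362 and 4.84 in silent and 2.21 and 2.07 in derepressed cells. Tafa1, a secreted neuronal ligand, held 279 and 549 UMIs in Ctrl and none in silent cells, at least 38.2-fold lower, and 28 and 8 UMIs in derepressed cells. Agtr1a, the angiotensin receptor, Tbx1, Grm4 and 6330403K07Rik were lower in silent cells too, with counting ratios of 36.1, 15.8, 10.8 and 9.18. The fitted log2 differences of derepressed cells against Ctrl were -4.53 for Zfpm2, -5.04 for Adamts9, -3.97 for Krt79, -4.24 for Tbx1 and -4.06 for 6330403K07Rik, and closer to 0 for Agtr1a (-3.47), Tafa1 (-2.96) and Grm4 (-2.42). In Zfpm2, Adamts9 and Krt79 all 4 TKO sums lay below both Ctrl sums.

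**Figure D5:**
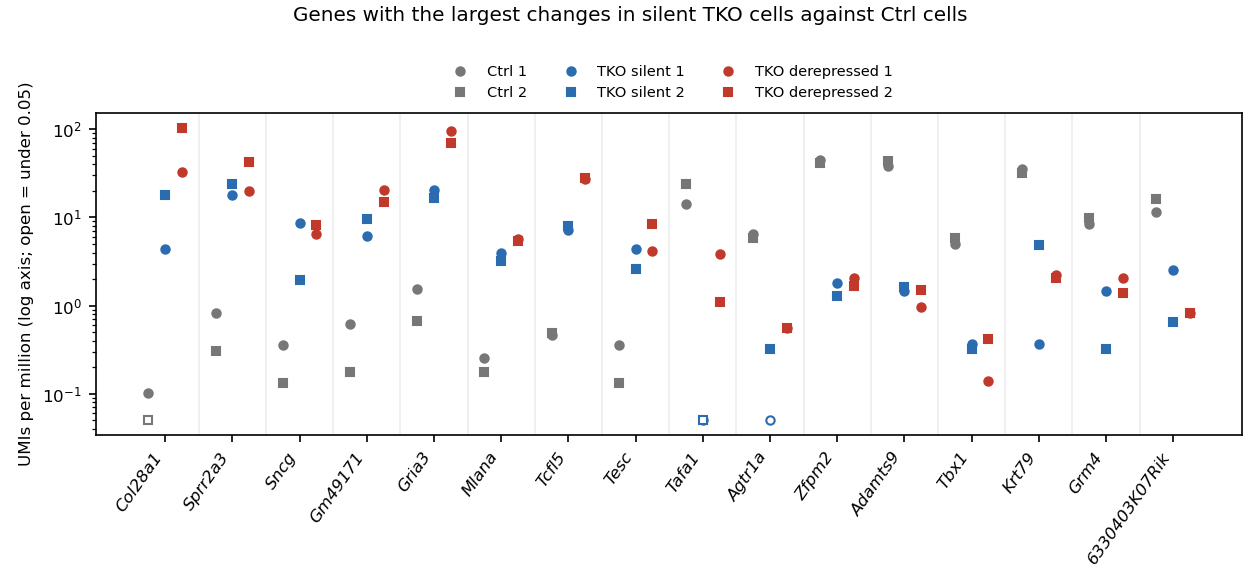
Level in CPM (log axis; open symbols are under 0.05) of the 8 genes with the highest and the 8 with the lowest log2 change in silent TKO cells against Ctrl cells, with Ctrl in grey, silent in blue and derepressed in red, circles for replicate 1 and squares for replicate 2. Col28a1, Gm49171, Gria3 and Tcfl5 climb from grey to blue to red, whereas in Zfpm2 and Adamts9 blue and red lie together below grey.

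Of 21 glycolysis and hypoxia genes, 10 were higher in silent cells than in Ctrl (1.15% of all genes were) and 0 lower, with a median of 0.83, and 15 were higher in derepressed cells (7.46% of all genes), with a median of 0.94 (both medians beside -0.01 over all genes). Without Ctrl 1 or Ctrl 2, 6 and 2 genes in all were higher in silent cells, so at most that many of the 10 calls held there. Pgam1, a glycolytic mutase, stood at 332 and 315 CPM in Ctrl, 625 and 612 in silent and 715 and 715 in derepressed cells (silent against Ctrl, log2 0.93, adjusted p = 0.0118). Pgk1, a glycolytic kinase named after its values were seen, stood at 234 and 201, 408 and 435, and 448 and 525 (log2 0.95, adjusted p = 0.0227). Between the TKO classes 2 of the 21 were called, Pfkp at 0.67 and Gpi1 at 0.26, with a median of 0.17, and neither was called in DESeq2, without the block or with either library left out. Mitotic genes had 3 of 25 higher in silent cells (1.15% of all genes) and 12 of 25 in derepressed cells (7.46%). Hemidesmosome, laminin and matrix genes had 3 of 19 lower in silent cells (0.734% of all genes), and in derepressed cells 5 lower (4.65%) and 1 higher, a smaller share than the 7.46% of all genes. That a gene passed against Ctrl in 1 class and not in the other does not show that the classes differ in it.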

How the data were processed

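Epcam+ α6+ sorted dorsal skin cells of 2 Ctrl and 2 TKO embryos were profiled by 10x 3′ sequencing. The deposited matrices hold raw UMI counts per gene and barcode, made by the authors with Cell Ranger (7.1.0 in the file headers) on GRCm39. The study's methods name another release of that program, and its list of litters gives another embryonic day than the labels, which were followed.

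Libraries held 3804 to 5785 barcodes and 70749496 to 89655247 UMIs. Library pairs shared 2 to 12 barcodes. Cells were filtered and thinned as stated, which left sums of 2760000 to 7260000 UMIs per TKO class and library and of 19640000 and 22700000 in Ctrl. Scrublet's automatic threshold marked 1 to 31 barcodes per library and so had not worked; the top-scoring barcodes, 0.8% per 1000 barcodes, were left out in an alternative. Sums were fitted in edgeR 4.0.16 (R 4.3.3; glmQLFit, glmQLFTest, filterByExpr, TMM, Benjamini-Hochberg over all genes tested, 0.05), with the panel genes out of the test but in the totals. Derepressed against silent used the library as a block, because both sums come from the same embryo (correlation of their deviations 0.489). Contrasts with Ctrl used all 6 sums and no block. DESeq2 1.42.0, other thresholds, depths, gates, seeds and left-out libraries were alternatives. In data simulated for derepressed against silent (12609 genes), 58.3% of 1.5-fold, 74% of 2-fold and 100% of 4-fold changes were recovered with 5 false calls. Each embryo is 1 replicate, and cells are not. The study itself tested cells. Coordinates are from GENCODE on GRCm39. Of 56980 genes, 744 had no position there and 145 symbols belonged to several identifiers. Named genes were the 15 highest and lowest log2 differences between the TKO classes and the 8 each way in silent against Ctrl, among called genes with the same direction in both libraries, at least 20 UMIs in the higher group and no same-strand overlap with a panel gene, the targeted and panel genes, and up to 4 genes of lowest p per list. One gene that met this rule is not reported here. Classes, panel and lists were chosen with earlier results of these data known.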

Additional observations from a re-analysis of the deposited data

Results flagged for a closer look

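Barcodes outside the keratinocyte gate, which entered no comparison between classes, held panel UMIs above the Ctrl level. Among barcodes with under 50 keratin UMIs per 10000 and at least 20 UMIs of fibroblast, immune, melanocyte or endothelial markers, 21.2% in TKO 1 (138 of 651) and 13.1% in TKO 2 (95 of 723) held 3 or more panel UMIs, against 1.05% and 0.976% in Ctrl. With under 5 keratin UMIs the shares were 3.87% and 2.53% against 1.02% and 1.42%, and their intervals overlapped those of Ctrl.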

How the results depend on the processing

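With 2 embryos per group, the counts of calls depended on the fit. Derepressed against silent (494 higher, 273 lower) gave 3 and 0 with no replicate block (539 and 211 at an unadjusted p under 0.05), 76 and 16 in DESeq2, 1068 and 717 on all UMIs of each cell, 833 and 498 with derepressed set at 10 or more, 428 lower at 5 or more, 210 and 100 below all 3 gates, 268 and 105 without cells holding other-cell markers, 298 and 150 at 100 keratin UMIs, and 48 to 102 and 7 to 40 without 1 replicate; the last 2 choices of cells were made after seeing the data. The cause of these differences was not tested, beyond the fewer cells or samples that some leave. Of the 30 genes named in that comparison, none changed sign where it was tested, but 4 were tested below all gates, 7 at 100 keratin UMIs, 14 below the mitosis gate and 15 at 15000 to 40000 UMIs; 2 of 30 were called with no replicate block, 4 of 30 in DESeq2, and 7 of 30 and 8 of 29 without replicate 1 or 2. The Suv39h1 difference (-0.65) was no longer called with no replicate block (-0.65), in DESeq2 (-0.64), with another seed (-0.23), below the mitosis gate (-0.72) or all gates (-0.38), at 15000 to 40000 UMIs (-0.44), at 100 keratin UMIs (-0.59) and without 1 replicate (-0.80 to -0.44). Suv39h2 changed sign in the left-over UMIs (0.037). Silent against Ctrl (165 and 105) gave 73 higher with the replicate block, 515 and 235 in DESeq2, 567 and 897 with no expression filter, 302 and 206 on all UMIs, 88 and 57 below all gates, and 2 to 711 and 3 to 584 without 1 replicate; Setdb1 (-0.57) became a call in DESeq2 (-0.56), with no filter (-0.65) and without TKO replicate 1 (-0.65; range without 1 replicate -0.69 to -0.46), and Suv39h1 changed sign without TKO replicate 1 (range -0.016 to 0.48). Derepressed against Ctrl (1067 and 665) gave 520 and 335 below all gates, 1547 lower with no filter, and 213 to 1783 and 121 to 1398 without 1 replicate. Its Setdb1 call (-0.73) was lost without Ctrl replicate 1 (-0.62) or 2 (-0.85). Its Suv39h2 value changed sign below all gates (-0.61) and without TKO replicate 1 (range -0.19 to 0.36). Ctrl and TKO numbers share no embryo, and since their deviations correlated at -0.211 and -0.187, a block with crossed numbers was added after seeing the data, which gave 796 and 693 calls for silent and 1839 and 1409 for derepressed cells; it was chosen by the sign of those correlations, so its larger counts support nothing. Over single genes, 438 values kept direction and call, 110 lost the call and 4 changed sign. At this depth 58.3% of simulated 1.5-fold changes between the TKO classes were recovered, so changes of that size can be missed.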
